A study of Homo sapiens with 33 samples.

Results

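Solute carriers (SLC) are the large superfamily of membrane proteins that move ions, metals, amino acids, sugars, vitamins and other small solutes across the plasma membrane and the membranes of organelles. On these cDNA membrane arrays they were taken as the spots annotated with exactly 1 gene symbol, that symbol beginning with an SLC family number and A, or with SLCO, the prefix of the organic anion transporting polypeptides. The rule gave 338 spots for 203 gene symbols, out of 34560 spots, of which 18025 carried 1 symbol (10726 symbols in all). A single spot stood for 127 of the genes and several spots for the other 76, with 12 spots at most. Another 17 spots named an SLC gene beside a further symbol and were left out. The symbols fell into 51 families, and the spots were placed by family in 16 groups, each named for a main substrate or place of its families. A group can hold carriers of other substrates: the monocarboxylate group holds 5 spots of SLC13, which carries dicarboxylates and sulfate, and the sugar group holds 4 of the vitamin carrier SLC5A6. 9 spots of 7 symbols match the prefix without standing for a transporter, such as the antisense RNA or divergent transcript of a carrier gene, and were kept as a group of their own.

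The arrays compared CaCo-2, a human colon carcinoma line that resembles intestinal absorptive cells, with THP-1, a human monocytic leukaemia line. Each line was either left unstimulated or given tumour necrosis factor (TNF) at 5 ng/ml for 60 min. Radioactively labelled cDNA of one RNA sample was hybridised to each membrane. The deposited table has 33 columns, 11 of them on a larger scale (SD of intensity 4.08 to 4.10) than the other 22 (1.36 to 1.38). 10 of the 11 were each taken to repeat the measurements of 1 of the 22, since at least 99.89% of spots were at 2 or more times that column, against at most 90.6% for any other. 9 of these pairs carry the same label and were counted once, and 1 carries opposite treatment labels and was left out. THP-1 control 3, the larger-scale column without such a partner, was kept as an array. No source used here states that paired columns are 1 hybridisation. That left 22 arrays: 5 of unstimulated CaCo-2 cells, 5 of TNF-treated CaCo-2 cells, 5 of unstimulated THP-1 cells and 7 of TNF-treated THP-1 cells. Neither the cultures nor the RNA preparations behind the replicates are described as separate, so the p-values measure the spread between these arrays, which may be technical, and the number of arrays limits the precision.

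In intestinal cells, carriers of the apical and basolateral membranes together take nutrients and metals across the epithelium, and in phagocytic cells carriers of the endosome and phagosome help to withhold metals from microbes. Zinc is moved by 2 families with opposite directions: the SLC39 (ZIP) proteins bring zinc into the cytoplasm, and the SLC30 (ZnT) proteins take it out of the cytoplasm into organelles or out of the cell. Copper enters through SLC31A1, and iron leaves through SLC40A1, ferroportin. Transcription of several zinc carriers responds to zinc through the metal-responsive factor MTF1.

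3 of the 4 metal carriers called between the lines are shown first, by the 250 bases before their annotated starts (the window of SLC39A14 was not used here), because the metal carriers hold the largest line differences among all SLC spots. The sequences come from RefSeq (GRCh38.p14), read 5′ to 3′ on the gene's strand. Capitals mark a match to the core of the metal response element, TGCACNC or TGCGCNC, searched on both strands.
SLC30A6 (chr2:32165614-32165863, + strand): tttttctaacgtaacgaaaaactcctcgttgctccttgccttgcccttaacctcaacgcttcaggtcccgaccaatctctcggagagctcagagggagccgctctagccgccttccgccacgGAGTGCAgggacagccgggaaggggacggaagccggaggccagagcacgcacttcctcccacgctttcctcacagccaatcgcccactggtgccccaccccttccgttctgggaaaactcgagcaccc
SLC39A1 (chr1:153963538-153963787, - strand): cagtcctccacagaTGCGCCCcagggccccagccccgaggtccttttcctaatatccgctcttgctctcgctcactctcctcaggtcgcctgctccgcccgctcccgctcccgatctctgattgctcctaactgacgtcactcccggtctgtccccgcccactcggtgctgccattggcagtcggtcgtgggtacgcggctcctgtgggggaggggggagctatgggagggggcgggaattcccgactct
SLC31A1 (chr9:113221294-113221543, + strand): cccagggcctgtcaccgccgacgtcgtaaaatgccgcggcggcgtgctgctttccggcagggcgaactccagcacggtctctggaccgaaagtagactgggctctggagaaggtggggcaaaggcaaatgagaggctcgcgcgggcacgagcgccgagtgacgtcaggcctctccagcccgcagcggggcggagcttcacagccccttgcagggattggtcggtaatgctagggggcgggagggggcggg
The SLC30A6 window held 1 match, beginning 128 bases before the start, and that SLC39A1 window held 1, beginning 236 bases before it. The other annotated SLC39A1 start and the SLC31A1 window held none of these letters. The core is common: 24.8% of the 35116 RefSeq windows of this length held a match, and 26.6% of the 233 windows of the 159 SLC genes found in that table did. A match is a description of the letters and no evidence of a bound site.

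Many SLC spots were not measurable on every array. The table lists a share of the spots at exactly 0, between 27.81% and 40.83% of the SLC spots on an array, and a 0 was treated as no measurement of the level. 50 of the 338 SLC spots (14.79%) were above 0 on all 22 arrays, against 18.52% of all spots, and 3 were above 0 on none. A spot was tested between the lines where at least 3 arrays of each of the 4 groups were above 0, which held for 165 SLC spots (48.82%) of 114 genes and for 48.99% of all spots. Levels are log2 intensities after quantile normalization, so that a level below 0 is an intensity under 1, and they compare arrays of the same spot, not different genes. RNA was measured from whole cultures, where fewer cells with a transcript and less of it per cell cannot be told apart. The lines' markers followed the labels in part. VIL1, an intestinal brush border protein, was 0.09 higher in CaCo-2 (SE 0.017, limma adjusted p = 0.0035), and LAPTM5, a lysosomal protein of blood cells, was above 0 on 1 of 10 CaCo-2 and 12 of 12 THP-1 arrays. LAIR2, a leukocyte receptor, was above 0 on 2 of 10 CaCo-2 and 12 of 12 THP-1 arrays at spot 70C05. At its other spot, 40G22, the order was opposite, with 7 of 10 CaCo-2 and 4 of 11 THP-1 arrays above 0. ELF3, an epithelial transcription factor, was above 0 on 8 of 10 CaCo-2 and 0 of 12 THP-1 arrays at spot 88A17, but on 2 of 10 and 11 of 12 at spot 85B06. The monocytic markers with a tested level, PTPRC (-0.059), TYROBP (0.013) and CSF1R (0.0089), were not called, and their median was near that of all spots. CaCo-2 control 1 deviated from its group mean together with CaCo-2 TNF 1 (correlation of the deviations 0.67) and CaCo-2 TNF 2 (0.66). So did CaCo-2 control 5 with CaCo-2 TNF 6 (0.73) and CaCo-2 control 4 with CaCo-2 TNF 5 (0.50). The tests treat these arrays as independent. CaCo-2 control 5 and CaCo-2 TNF 6 also had the lowest maximum intensities, 134.6 and 133.4.

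Averaged over both treatments, 14 of the 165 tested SLC spots (8.48%) differed between the lines at an adjusted p under 0.05 (limma, adjusted over all 16931 spots tested), against 10.3% of all tested spots. 11 of them were higher in CaCo-2, where the background was 5.86%, and 3 were lower, where it was 4.42%. The median difference of the SLC spots, 0.01, was that of all spots, and 97 of 165 lay above 0 (58.8%, against 58.5% of all). At an unadjusted p under 0.05 there were 50 SLC spots (30.3%, against 27.7% of all), 27 higher (background 15.8%) and 23 lower (11.9%). As a class the carriers thus differed between an intestinal and a monocytic line at about the rate of the whole array. The differences that passed the test were small on this scale, from 0.048 to 0.60, and for every one the ranges of the CaCo-2 arrays (8 to 10 above 0) and THP-1 arrays (6 to 12 above 0) overlapped (background for ranges that do not overlap, CaCo-2 higher: 0.36%; CaCo-2 lower: 0.159%). With CaCo-2 control 1 left out 26 SLC spots were called, with THP-1 TNF 8 left out 22, and with THP-1 control 4 or THP-1 TNF 1 left out 9. The count depended on the processing: it was 0 without normalization, 3 with the mean of both columns of a pair, 28 with array medians subtracted (21 higher, 7 lower) and 35 with array weights (22 higher, 13 lower). With plate medians subtracted, an alternative chosen after seeing the data, the calls split into 11 higher and 8 lower.

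Metal carriers gave the largest differences in both directions. 28 of their 44 spots were tested, and the range ran from -0.23 to 0.60. 3 were called higher in CaCo-2 (background 5.86% of all tested spots) and 1 lower (background 4.42%). The 3 that were higher all belong to the zinc carrier families SLC30 and SLC39.

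SLC30A6 encodes ZnT6, which acts with a partner ZnT protein to load zinc into the early secretory pathway. Its spot 13N14 read -0.11, 0.85, 0.58, 1.30 and 0.51 on the unstimulated CaCo-2 arrays 1 to 5. On the TNF-treated CaCo-2 arrays 1, 2, 4, 5 and 6 it read 0.21, 0.34, 0.97, 1.12 and 0.46. The 5 unstimulated THP-1 arrays lay between -0.22 and 0.19, and the 12 THP-1 arrays together between -0.22 and 0.31, with a median of 0.01. 8 of the 10 CaCo-2 arrays were above every THP-1 array, and the other 2, CaCo-2 control 1 and CaCo-2 TNF 1, lay inside the THP-1 range. The difference was 0.60 (SE 0.13), or 1.52-fold, with an adjusted p of 0.0079, and it was the largest of any SLC spot tested. It was 0.66 (SE 0.19) among unstimulated arrays and 0.55 (SE 0.18) among TNF arrays. The call held in 15 of 16 alternative settings and without any single array; without normalization the adjusted p was 0.054.

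SLC39A14 encodes ZIP14, an importer of zinc, iron and manganese. Spot 34G21 ranged from -2.67 to -2.31 on CaCo-2 arrays, with a median of -2.50, and from -2.75 to -2.63 on the 10 THP-1 arrays above 0, with a median of -2.69. 8 of 10 CaCo-2 arrays lay above all THP-1 arrays, and 2 of the 7 TNF-treated THP-1 arrays read 0. The difference was 0.20 (SE 0.037), 1.15-fold, with an adjusted p of 0.0039, the smallest among SLC spots. It kept its call in 14 of 15 alternatives, losing it without normalization (adjusted p = 0.19).

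SLC39A1 encodes ZIP1, a zinc importer of the plasma membrane found in most cells. Spot 25L06 had a median of -2.27 on CaCo-2 arrays (lowest -2.45, highest -2.12) and of -2.44 on THP-1 arrays (lowest -2.48, highest -2.32). 6 of 10 CaCo-2 arrays exceeded every THP-1 array. The difference was 0.14 (SE 0.035), 1.10-fold, adjusted p = 0.016, and the call was lost without normalization and with 2 of the other ways of using the paired columns.

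SLC31A1, the copper importer CTR1, ran the other way. Spot 41J12 read 1.29, 0.93, 1.35, 1.08 and 1.13 on unstimulated CaCo-2 arrays and 1.47, 1.30, 1.58, 1.70 and 1.49 on unstimulated THP-1 arrays. Only the CaCo-2 array at 1.35 exceeded the lowest of those THP-1 arrays. After TNF the lines ran together, with means of 1.16 ± 0.13 (SD, n = 5) in CaCo-2 and 1.27 ± 0.16 (SD, n = 7) in THP-1. Over both treatments the difference was -0.23 (SE 0.062), with the level in CaCo-2 1.17-fold lower (adjusted p = 0.024). The line difference was -0.35 (SE 0.092) unstimulated and -0.11 (SE 0.085) after TNF; the interaction, 0.24 (SE 0.12), did not pass the test (p = 0.068, adjusted p = 1). The second spot of the gene, 36B08, lay at -0.061 (SE 0.032, adjusted p = 0.21). The call of 41J12 was lost when values at 0 were floored, without normalization, with 2 other ways of using the paired columns, and without CaCo-2 control 5, CaCo-2 TNF 6 and THP-1 control 3 (adjusted p = 0.058).

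**Figure D1:**
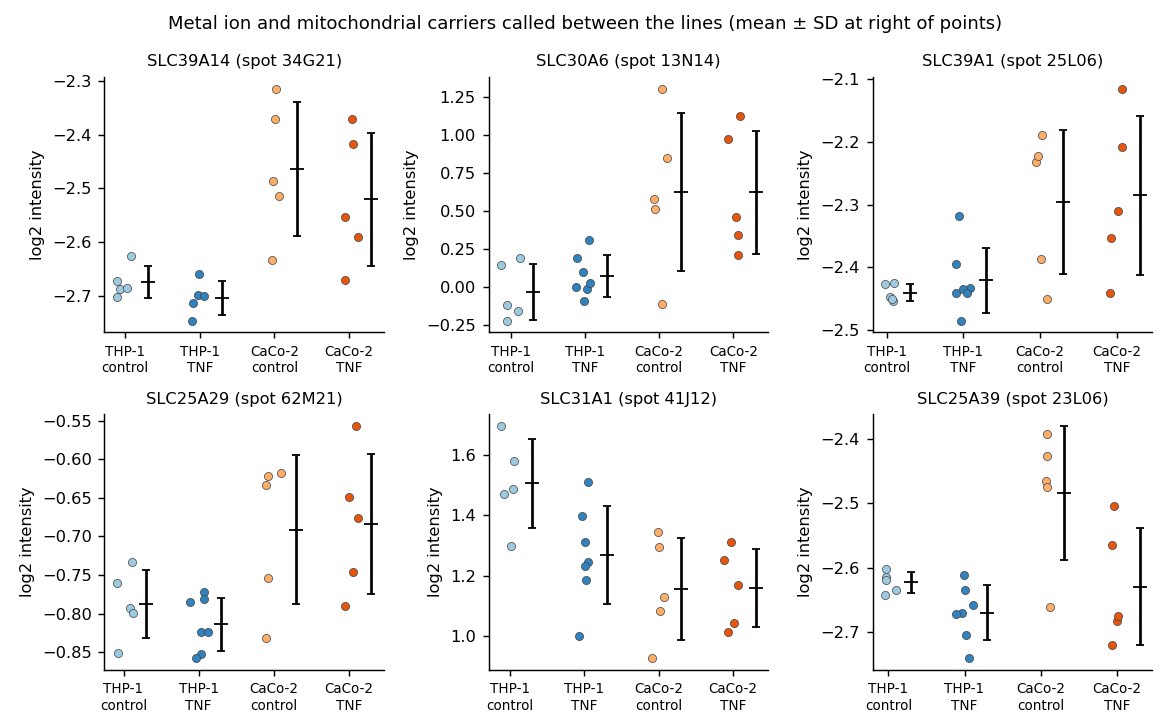
Normalized log2 intensity (vertical axis) of 6 SLC spots on each array, by group, with the mean ± SD to the right of the points; each panel has its own axis range. SLC30A6, SLC39A14 and SLC39A1 are higher on most CaCo-2 arrays but overlap the THP-1 range, SLC31A1 is highest on unstimulated THP-1 arrays, and SLC25A39 is highest on 4 of the 5 unstimulated CaCo-2 arrays.

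Across the zinc importers, 12 of 17 SLC39 spots, of 7 genes, were tested. 10 lay above 0 (background 58.5% of all spots), 2 of them called (background 5.86%). Without normalization 9 of 12 lay above 0, with none called. With the mean of paired columns 8 of 13 lay above the median of all spots, 0.078, and 5 below it. SLC39A9 (ZIP9), with 5 spots, had all 5 above 0 (0.018 to 0.13) and none called, but only 3 of 5 above 0 without normalization or with the mean of paired columns. SLC39A5, an importer of the intestine and pancreas, had spots at -0.098 and 0.039. Of the zinc exporters 4 of 11 SLC30 spots were tested; besides SLC30A6, the spots of SLC30A1, SLC30A5 and SLC30A9 lay between -0.020 and 0.029 and none was called. The tested spot of MTF1 lay at -0.007 (SE 0.018, limma adjusted p = 0.81). MTF1 spot 67I04, not tested for level, was above 0 on 4 of 10 CaCo-2 and 11 of 12 THP-1 arrays (Fisher's exact test, adjusted p = 0.51). Spot 85C22 was so on 2 of 10 and 5 of 12.

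No spot of the families known chiefly for iron was called. SLC11A1, the NRAMP1 metal pump of the phagosome, was -0.17 in CaCo-2 against THP-1 (SE 0.065, adjusted p = 0.088). The 3 tested spots of SLC11A2, the iron importer DMT1, lay between -0.037 and 0.017. The 3 of ferroportin lay at -0.046, 0.023 and 0.092, on both sides of 0, and none was called. SLC41A1, a magnesium carrier, was -0.14 (SE 0.048, adjusted p = 0.062).

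Mitochondrial carriers of the SLC25 family exchange metabolites across the inner membrane. In this group 19 of 42 spots were tested and 2 were called, both higher in CaCo-2 (background 5.86% of all tested spots). SLC25A29, a carrier of basic amino acids, ranged from -0.83 to -0.56 on CaCo-2 arrays (median -0.66) and from -0.86 to -0.73 on THP-1 arrays (median -0.80). 6 of 10 CaCo-2 arrays stood above all THP-1 arrays, and the difference was 0.11 (SE 0.029), 1.08-fold, adjusted p = 0.020. The call held without any single array and in 12 of 16 alternatives, and was lost with array medians subtracted (adjusted p = 0.092). SLC25A39, which carries glutathione into mitochondria, read -2.66, -2.39, -2.46, -2.43 and -2.47 on unstimulated CaCo-2 arrays, and -2.64 to -2.60 on unstimulated THP-1 arrays. CaCo-2 control 1 was the only one of its group inside the range of the 12 THP-1 arrays, and after TNF the CaCo-2 mean was -2.63 ± 0.091 (SD, n = 5). Its difference over both treatments was 0.090 (SE 0.028), adjusted p = 0.045, a call that held in 5 of 22 fits with 1 array left out. SLC25A37, mitoferrin 1, the iron importer of mitochondria, was at -0.070 (adjusted p = 0.068), and this value turned positive with the mean of paired columns.

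Amino acid carriers had 61 spots, 32 of them tested, with a median of 0.0013. Among them 1 was called in each direction (background 5.86% of all tested spots higher and 4.42% lower). SLC7A4, a relative of the cationic amino acid carriers, ranged from -2.0 to -1.39 on CaCo-2 arrays and from -2.0 to -1.86 on THP-1 arrays. 7 of 10 CaCo-2 arrays lay above and 1 lay below all THP-1 arrays, and the difference was 0.18 (SE 0.052), adjusted p = 0.030. The call held in 11 of 16 alternatives; the adjusted p was 0.28 without normalization, 0.053 with the mean of paired columns, 0.077 with the replicate block, 0.083 with plate medians subtracted, and 0.080 without CaCo-2 control 5, CaCo-2 TNF 6 and THP-1 control 3. SLC7A2, the arginine carrier CAT2, was lower in CaCo-2 at spot 55C07, with a median of -2.12 on 8 CaCo-2 arrays and -2.0 on 12 THP-1 arrays. The difference there was -0.12 (SE 0.036), adjusted p = 0.035. It shrank to -0.011 with the mean of paired columns and to -0.066 with plate medians subtracted. The call held in 8 of 14 alternatives and in 16 of 22 fits with 1 array left out. Spot 55C07 lies on plate 55, where 23.31% of tested spots were called, the highest share of any plate (10.3% of all tested spots). The gene had 11 spots, 7 of them tested, and 5 lay below 0, from -0.18 to -0.051, while 2 lay above, at 0.0087 and 0.052. SLC38A11, a sodium-coupled amino acid carrier, lay at -0.056 (SE 0.018), just outside the threshold (adjusted p = 0.053), and it turned positive with the mean of paired columns or with all columns used separately.

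Among lipid and vitamin carriers 15 of 17 tested spots lay above 0, where 58.5% of all spots did, with a median of 0.029 against 0.0092 for all spots; no test of the group was made. The 17 spots stand for 6 genes, and 10 of them for SLC44A2, a choline transporter-like protein. The group's 2 called spots of 17 tested (background 10.3% of all tested spots) belong to SLC44A2. Spot 80F18 ranged from -2.57 to -2.44 on 8 CaCo-2 arrays and from -2.63 to -2.53 on 8 THP-1 arrays, and differed by 0.068 (SE 0.015, adjusted p = 0.014), but it turned to -0.018 without normalization and to -0.068 with the mean of paired columns. Spot 55P10, also on plate 55, differed by 0.095 (SE 0.028, adjusted p = 0.045) over 9 and 6 arrays. That call held in 6 of 14 alternatives and in 7 of 16 fits with 1 array left out. Of the gene's 10 tested spots 8 lay above 0 and 2 below, from -0.029 to 0.095; without normalization 3 lay above 0 and 7 below, while 7 of 10 stayed above the median of all spots. The spots of one gene do not carry the same value here, and the clone behind each may cover a different piece of the transcript, which was not tested.

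**Figure D2:**
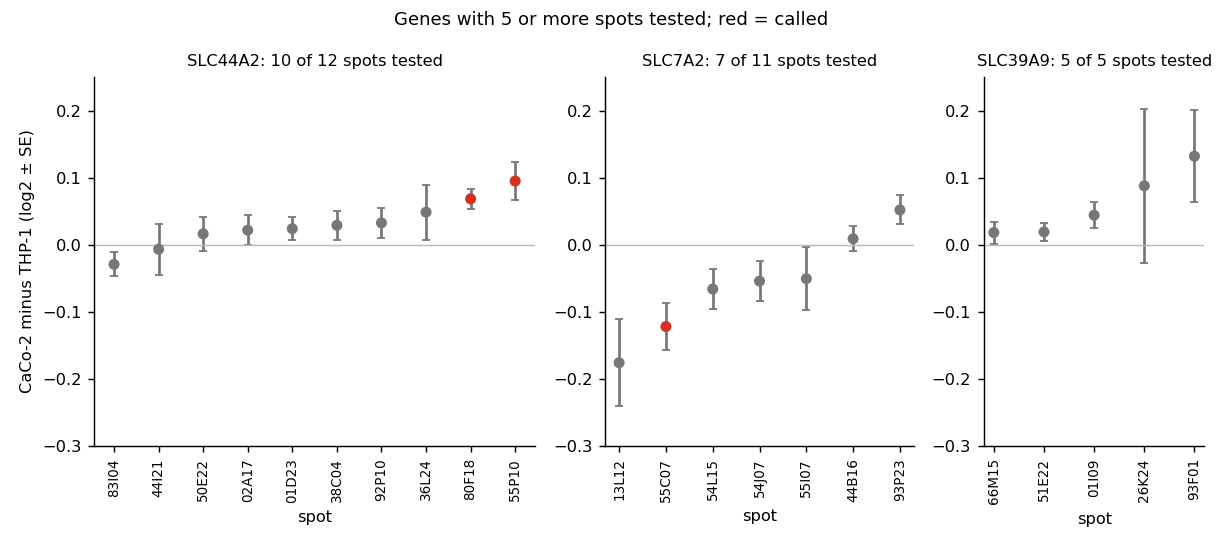
Line difference (CaCo-2 minus THP-1, log2, ± SE from limma) for each tested spot of SLC44A2, SLC7A2 and SLC39A9; red spots were called. As normalized here 8 of 10 SLC44A2 spots are above 0 (3 of 10 without normalization), 5 of 7 SLC7A2 spots are below 0, and all 5 SLC39A9 spots are above 0 (3 of 5 without normalization).

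Such disagreement was common. Among 28 SLC genes with several tested spots, 15 (53.57%) had all spots on the same side of 0, against 48.89% of 1583 genes on the array. For the 4 called genes with several tested spots, 13 of the 17 other spots had the sign of the called one (76.47%, against 59.78% over the array) and 1 was called itself.

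Carriers of organic ions and bile acids gave 1 call each way among 11 tested spots of 28 (background 5.86% higher and 4.42% lower). SLC22A7, the organic anion transporter OAT2, had medians of -2.52 in CaCo-2 and -2.58 in THP-1, with 6 of 10 CaCo-2 arrays above all THP-1 arrays, and differed by 0.062 (SE 0.015, adjusted p = 0.015). The call of SLC22A7 held in 9 of 15 alternatives. It was lost with values at 0 floored (limma adjusted p = 0.35), with plate medians subtracted (0.32) and without normalization (0.94). Other uses of the paired columns lost it too: their mean (0.11), all columns separately (0.20) and the pair with opposite labels kept (0.085). SLC47A1, the cation and proton antiporter MATE1, ranged from -1.08 to -0.95 in CaCo-2 and from -1.03 to -0.74 in THP-1, and differed by -0.10 (SE 0.029, adjusted p = 0.031). Leaving out CaCo-2 control 5 or CaCo-2 TNF 4 moved that p to 0.056 and 0.052. The call of SLC47A1 held in 9 of 16 alternatives. Its difference shrank to -0.0040 with the mean of paired columns and to -0.033 with all columns used separately.

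Among the cation-chloride cotransporters, SLC12A4 (KCC1), which lets potassium and chloride out of the cell, was 0.048 higher (SE 0.014, adjusted p = 0.040), with the sign lost without normalization (-0.0039). SLC12A2 (NKCC1), which brings sodium, potassium and chloride in, was -0.098 (SE 0.033, adjusted p = 0.061). SLC67A2 was 0.087 higher (SE 0.026, adjusted p = 0.037), a call that held in 11 of 22 fits with 1 array left out. No spot was called among tested carriers of sugars (7 of 19 tested), neurotransmitters and related amino acids (3 of 8), monocarboxylates (5 of 11), peptides and nucleosides (2 of 8), nucleotide sugars (2 of 11), anions (3 of 9), vesicular and phosphate carriers (9 of 16), or sodium, calcium and proton exchangers (7 of 14). At an unadjusted p under 0.05 these 8 groups held 9 of their 38 tested spots (23.7%, against 27.7% of all spots). The closest were SLC35A2, the Golgi importer of UDP-galactose, at 0.058 (SE 0.019, adjusted p = 0.0503), SLC4A8, a sodium-dependent bicarbonate carrier, at -0.080 (adjusted p = 0.083), and SLC6A2, the noradrenaline transporter, at -0.15 (adjusted p = 0.090). All 3 tested SLC6 spots lay below 0, and 1 of them lay above 0 with the mean of paired columns.

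**Figure D3:**
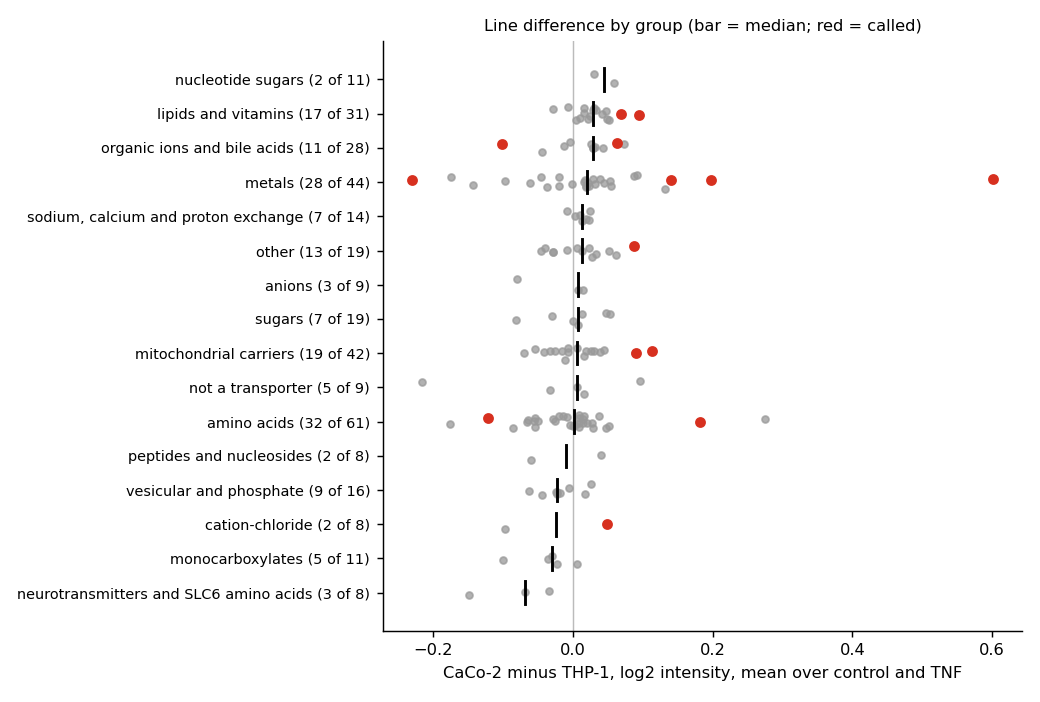
Line difference (CaCo-2 minus THP-1, log2 intensity, averaged over control and TNF) of the 165 tested SLC spots by family group, with tested of all spots in brackets; bars are group medians and red spots were called. The metal carriers span -0.23 to 0.60, the widest range, and the group medians lie between -0.068 and 0.044.

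Split by treatment, no SLC spot was called by limma: 0 of 188 among unstimulated arrays (background 0.433%) and 0 of 211 among TNF arrays (background 0.8%). At an unadjusted p under 0.05 there were 36 SLC spots in the former (19.1%, against 15.6% of all) and 32 in the latter (15.2%, against 16.9%). The former split into 19 higher (background 7.71%) and 17 lower (7.84%), and the latter into 27 higher (12.2%) and 5 lower (4.68%). Among unstimulated arrays 92 of 188 SLC spots lay above 0 (48.9%, against 51.8% of all), and among TNF arrays 136 of 211 did (64.5%, against 63.8%). No array is in both comparisons, but both come from the same fit and share its estimate of each spot's spread. A p-value under 0.05 in both is therefore not a repeat in separate data. Of the 33 SLC spots under 0.05 among unstimulated arrays and tested in both, 31 had the same sign among TNF arrays (93.94%, against 91.53% of all spots), and 10 were under 0.05 there too (30.3%, against 40.71%). Across the 165 spots, which come from the same arrays and are not independent of each other, Pearson's r between both comparisons was 0.83 and Spearman's rho 0.67; over all 16931 spots they were 0.71 and 0.63. With CaCo-2 control 1 left out, 7 SLC spots were called among unstimulated arrays.

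**Figure D4:**
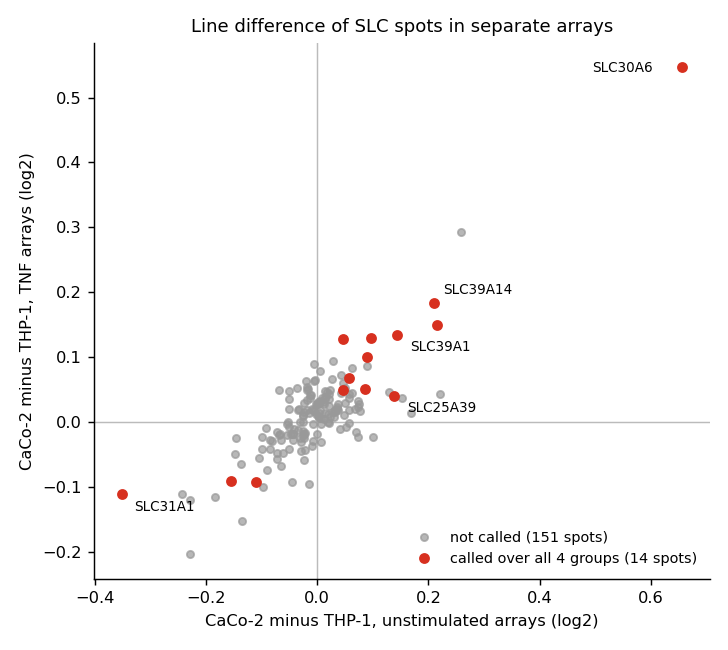
Line difference (CaCo-2 minus THP-1, log2) of the 165 SLC spots among unstimulated arrays (horizontal) and among TNF arrays (vertical), which share no array; red spots were called over all 4 groups. The called spots lie on the same side of 0 in both, with SLC30A6 at 0.66 and 0.55, and SLC31A1 at -0.35 and -0.11. They were called on the mean of both plotted values, which favours equal signs, so their shared side is no separate evidence of agreement.

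Carriers could also differ by being measurable in one line and not in the other, which the level test leaves out. The number of arrays above 0 was compared for all 338 SLC spots with Fisher's exact test (two-sided). No SLC spot passed after adjustment over the array (background 0.284%), and 35 were under 0.05 unadjusted (10.4%, against 6.87% of all spots), 18 toward CaCo-2 and 17 toward THP-1 (background 3.43% each). The fullest separations were equal and opposite. SLC30A8, the ZnT8 zinc carrier of secretory granules, was above 0 on 10 of 10 CaCo-2 and 3 of 12 THP-1 arrays, all 3 of them after TNF. SLC24A1, a sodium, calcium and potassium exchanger, was above 0 on 0 of 10 CaCo-2 arrays and 9 of 12 THP-1 arrays. Each had p = 0.00046 and an adjusted p of 0.11 by Fisher's exact test. The other SLC24A1 spot was above 0 on 4 of 10 and 3 of 12 arrays.

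SLC7A7, the y+LAT1 subunit that exports cationic amino acids, was above 0 on 10 of 10 CaCo-2 and 4 of 12 THP-1 arrays. SLC38A1, a glutamine carrier, was so on 9 of 10 and 2 of 12 at spot 62M22. SLC25A32, which carries folate and flavin into mitochondria, was above 0 on 6 of 10 CaCo-2 and 0 of 12 THP-1 arrays, and SLC40A1 at spot 51B07 on 5 of 10 and 0 of 12. SLCO2B1, an organic anion importer of the gut and liver, was above 0 on 8 of 10 and 2 of 12. In the other direction SLC25A47, a mitochondrial carrier, was above 0 on 0 of 10 CaCo-2 and 8 of 12 THP-1 arrays. SLC30A10, a manganese exporter, and SLC39A8 at spot 54D24, ZIP8, an importer of zinc and manganese, were each above 0 on 4 of 10 and 12 of 12. Adjusted p-values of these 8 spots ran from 0.19 to 0.33 by Fisher's exact test, so none passed. Other spots of these genes were above 0 in both lines. SLC40A1 was so on 10 of 10 CaCo-2 and 11 of 11 THP-1 arrays at 01P19. It was so on 10 of 10 and 7 of 12 at 66K08, and on 7 of 10 and 7 of 12 at 80L13. SLC38A1 was above 0 on 10 CaCo-2 and 12 THP-1 arrays at 13O14, and on 10 and 7 at 30B04. SLC39A8 was so on 8 and 9 at 36F04.

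**Figure D5:**
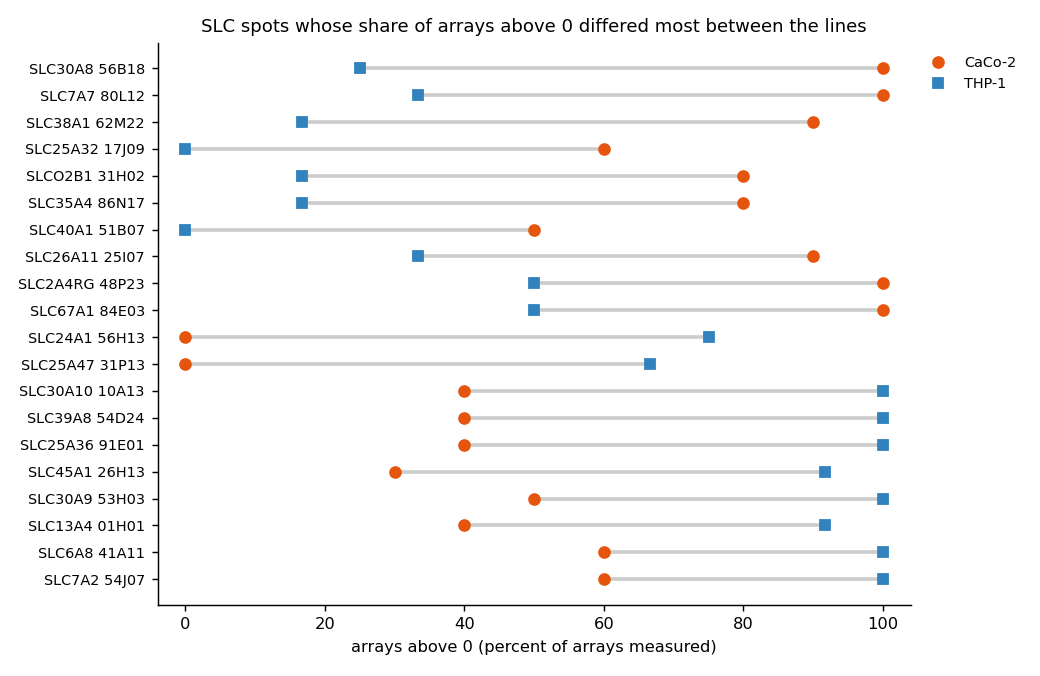
Percent of arrays above 0 in CaCo-2 (circles, of 10 arrays) and THP-1 (squares, of 12 arrays) for the 20 SLC spots with the smallest Fisher p, 10 in each direction. SLC30A8 and SLC7A7 are above 0 on every CaCo-2 array, and SLC24A1 and SLC25A47 on none; no spot passed the adjusted test.

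A list of carriers typical of absorptive intestine had 10 of its 29 genes on the array. 11 of their 17 spots were tested and none was called between the lines by limma, with 2 at an unadjusted p under 0.05 (27.7% of all spots were) and a median of -0.020 against 0.0092 for all spots. These 2, SLC39A5 28O12 and SLC40A1 01P19, lay below 0. A list of carriers typical of leukocytes had 8 of 16 genes there, and 7 of 15 spots were tested, with none called, 1 under 0.05 unadjusted (SLC11A1; background again 27.7%) and a median of 0.015. Among partners of carriers 10 of 19 spots were tested and 2 were called, both higher in CaCo-2 (background 5.86% of all tested spots). NHERF1, the scaffold that anchors the sodium and proton exchanger SLC9A3 in the brush border, was 0.22 higher in CaCo-2 (SE 0.051, limma adjusted p = 0.010). Spots of NHERF2 lay at -0.028, 0.024 and -0.0013 and that of PDZK1 at 0.034, with none called. EMB, an ancillary subunit of lactate carriers, was 0.078 higher at spot 63A02 (adjusted p = 0.035). Another EMB spot, 67N12, was above 0 on 1 of 10 CaCo-2 and 12 of 12 THP-1 arrays (Fisher's exact test, adjusted p = 0.027), so the spots of EMB opposed each other. Of the transcription regulators of carriers 4 of 12 spots were tested and 1 was called, lower in CaCo-2 (background 4.42%). It was NFE2L2, a regulator of antioxidant genes that include carriers, at -0.11 (SE 0.030, limma adjusted p = 0.027).

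TNF for 60 min changed no SLC spot past the threshold in either line. In CaCo-2, 0 of 197 tested spots passed (limma; 0 of 19479 on the whole array, background 0%), and 7 were under an unadjusted p of 0.05 (3.55%, against 4.27%), 2 higher (background 2.29%) and 5 lower (1.98%). In THP-1, 0 of 223 passed (0 of 21989, background 0%), and 10 were under 0.05 (4.48%, against 3.49%), all toward lower levels (background 2.66% lower and 0.837% higher). Differences above 0 made up 54.8% of SLC spots in CaCo-2, against 48.3% of all spots, and 31.8% in THP-1, against 31.2%. The median of all spots also lay below 0 there, at -0.013, and that of the SLC spots at -0.014. No SLC spot passed for the interaction of TNF and line (0 of 165, background 0%), where 3 were under 0.05 unadjusted (1.82%, against 3.54%), all above 0 (background 2.99%).

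The smallest p in CaCo-2 was at SLC25A39, whose values on TNF-treated arrays were -2.72, -2.68, -2.50, -2.56 and -2.67. They overlapped the unstimulated values given above, and the difference was -0.15 (SE 0.041, p = 0.0019 by limma, adjusted p = 0.996). SLC10A1, the bile acid importer NTCP, was at -0.089 (SE 0.026), and turned positive with values at 0 floored. The highest in CaCo-2 by p was SLC11A2 30H09, at 0.066 (SE 0.029, p = 0.040 by limma), which turned negative under 2 alternatives. In THP-1 the 4 smallest p toward lower levels were at SLC39A10, SLC39A8, SLC31A1 and SLC39A13. SLC39A10, the zinc importer ZIP10, read -2.69, -2.69, -2.69, -2.65 and -2.65 without TNF and between -2.78 and -2.70 on the 6 of 7 TNF arrays above 0. The difference was -0.078 (SE 0.023, p = 0.0030 by limma, adjusted p = 0.9997). This spot was picked by its small p, and the share of all spots with such ranges after TNF was not counted. SLC31A1 41J12 was at -0.24 (SE 0.085, p = 0.011 by limma), and its second spot, 36B08, had means of -0.51 and -0.61 without and with TNF. SLC39A8 36F04 was at -0.058 (SE 0.020) and SLC39A13, an importer of zinc, at -0.061 (SE 0.024). None of these passed the adjustment over the array.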

How the data were processed

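The authors deposited 1 table of spot intensity values per array, with 33 columns; their image analysis, background correction and scaling: not given in the sources used here. Gene symbols come from the platform annotation. The SLC genes and the lists were chosen with earlier results of these data known. Deposited intensity columns taken as a pair (1 at 2 or more times the other at over 99.5% of spots) were counted once, through the column of smaller scale. THP-1 control 3, on the larger scale with no partner, was divided by 3, which quantile normalization makes immaterial; its share of values at 0 (32.08%) is that of the smaller-scale columns, not of the 10 paired larger ones (17.18% to 22.32%), so whether it is a sum is not known. Without it 13 SLC spots were called between the lines. Values at 0 were set to missing. Log2 values were quantile normalized and tested with limma 3.58.1 in R 4.3.3 (lmFit on the 4 groups, eBayes with a variance trend), with at least 3 arrays above 0 per group used and Benjamini-Hochberg adjustment over all tested spots. On simulated arrays with 16931 spots the line test recovered 43.3% of changes of 0.1, 95.5% of 0.2 and 100% of 0.5 (log2). The simulated noise was drawn after normalization and separately for each spot and array. Some real arrays deviated together, so these shares do not give the recovery on the real arrays. Replicate numbers did not pair arrays. Named genes are those with the smallest p in each direction of each test (up to 10 for the line, 4 for TNF), the smallest in each group, and members of the lists, with a selection printed.
Alternatives changed the treatment of 0, the normalization, the filters, the variance model, the use of paired columns, the replicate block and the arrays included.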

Additional observations from a re-analysis of the deposited data

Results flagged for a closer look

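The SLC47A1 spot 64L06 read -1.08 on CaCo-2 control 5, while the other 4 unstimulated CaCo-2 arrays lay between -0.99 and -0.95. This was the 1 array standing apart from its group by Dixon's criterion among 54 sets of arrays tested, where chance would give about 2.7.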

How the results depend on the processing

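The count of 14 SLC spots called between the lines over all 4 groups moved to 0 without normalization, 28 with array medians subtracted, 35 with array weights, 3 with the mean of both columns of a pair, 4 with all columns as separate arrays, and 25 without the 3 CaCo-2 arrays that deviate together (CaCo-2 control 1, TNF 1 and TNF 2; chosen after seeing the data). It ran from 9 to 26 with 1 array left out. With the replicate number as a block it was 8, 4 in each direction and 7 of them shared, and the block changed no other count. Same-numbered arrays of different groups correlated between -0.49 and 0.67, and 2 of 22 arrays correlated best with their own number. The numbers therefore do not pair the arrays. Among unstimulated arrays the count of 0 became 2 with values at 0 floored, 10 with array weights, 2 with all columns separate, 9 without the 3 CaCo-2 arrays, and 0 to 7 with 1 array left out. Among TNF arrays it became 3 with the floor, 15 with array medians subtracted, 11 with array weights, 8 without the 3 CaCo-2 arrays, 2 without CaCo-2 control 5, CaCo-2 TNF 6 and THP-1 control 3 (also chosen after seeing the data), and 0 to 2 with 1 array left out. The counts of 0 for TNF in either line and the interaction stayed 0 in every setting run; the count of 0 by Fisher's test became 9 with all columns separate and stayed 0 with 1 array left out. Line differences that changed sign were SLC44A2 80F18 (-0.018 without normalization, -0.068 with the mean of paired columns), SLC12A4 (-0.0039 without normalization), SLC38A11 (0.083 with the mean of paired columns, 0.058 with all columns separate) and SLC25A37 30K11 (0.041 and 0.00989 in the same settings). TNF effects in CaCo-2 that did were SLC11A2 30H09 (-0.069 with the floor, -0.11 with the mean of paired columns), SLC8A2 (-0.092, floor), SLC43A2 01O08 (-0.027, mean of paired columns), SLC10A1 (0.46, floor), SLC44A2 80F18 (0.050, no normalization) and SLC39A9 01I09 (0.040, no normalization). In THP-1 they were SLC40A1 66K08 (-0.11, floor), SLC38A9 (-0.11, mean of paired columns) and SLC39A13 (0.052, floor). The causes were not tested. A level test was possible for 165 of 338 SLC spots.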
